A study of Mus musculus with 6 samples.

Results

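Nras, Hras, Araf, Braf, Map2k1, Map2k2 and Mapk3 encode GTPases and kinases of the pathway that carries growth factor signals from receptors at the membrane to ERK. These 7 genes, chosen by symbol, were followed among the 31918 genes measured in mouse spermatogonia sorted by the fluorescence of an Id4 reporter. All 7 were among the 13416 genes tested. Other genes of the same tiers are not analysed here. Mapk3, the kinase at the end of the cascade, was higher in spermatogonia with bright fluorescence (log2 fold change 0.71). Braf, the least abundant of the 7, was lower in them (log2 fold change -0.99), but its call was lost in 4 of 15 alternative fits. The other 5 did not pass the test. Of these, Nras, Hras and Map2k2 passed, as lower in bright spermatogonia, only in the alternative fit with the replicate number as a block.

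The Bright group held 3 libraries of ID4-GFP Bright spermatogonia, labelled high for Id4 expression, and the Dim group held 3 libraries of ID4-GFP Dim spermatogonia, labelled low. Both groups came from testes of pups at postnatal day 8 with the genotype Id4-eGfp (LT11). The transgene is a green fluorescent reporter of Id4, which encodes an inhibitor of helix-loop-helix transcription factors. All 6 libraries carry the transgene, and the labels do not name separate animals or pools for the libraries of a group, so p-values measure only the spread between these libraries, which may be technical. RNA was extracted with Trizol and reverse transcribed from oligo d(T), which selects polyadenylated transcripts.

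In this cascade a receptor tyrosine kinase recruits an exchange factor that loads RAS with GTP, RAS then activates a RAF kinase, RAF phosphorylates the MEK kinases MEK1 and MEK2, and these phosphorylate ERK. Active ERK phosphorylates cytoplasmic kinases and nuclear factors and induces phosphatases and other inhibitors that damp the cascade again. In undifferentiated spermatogonia the growth factor GDNF acts through the receptor RET and its co-receptor GFRA1, and FGFs act through their own receptors, and both can feed into RAS. The cascade is switched mainly by GTP loading and phosphorylation, which RNA levels do not measure.

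The sort was visible in Id4, which measured 28.5, 42.7 and 39.7 FPKM in the 3 Bright libraries and 3.75, 4.71 and 5.39 FPKM in the 3 Dim libraries. FPKM counts fragments per kilobase of transcript, scaled to library size, so levels of different genes can be set side by side. The germ cell genes Ddx4 and Dazl lay between 203.2 and 669.7 FPKM in all 6 libraries. Neither was called, though every Bright library lay below every Dim library for Dazl. Of 12 germ cell and spermatogonial markers, limma called 5 higher and 2 lower in Bright, where 22.5% of all genes tested were called. Dnd1, Uchl1 and Lin28a were not called either. Gfra1, Ret, Id4, Sall4 and Zbtb16 were higher, and Kit and Stra8 were lower. Means in Bright and Dim libraries were 83.3 and 4.98 FPKM for Gfra1, and 23.8 and 104 FPKM for Kit. Bright 3 stood apart: the 10 Sertoli markers summed to 621.6 FPKM there and to between 12.2 and 28.9 FPKM in the other 5 libraries, and the 9 Leydig markers to 1860 FPKM against at most 35.3 FPKM. The Leydig gene Hsd3b6 was listed at 0 in those 5 libraries. The 10 myoid and stromal markers summed to 268.7 FPKM in Bright 3 and 25.1 to 35.8 FPKM elsewhere. In these lists every gene but Col1a1 and Amh was highest in Bright 3. The stromal gene Col1a1 was lowest there (17.8 FPKM), and the Sertoli gene Amh was at 1.39 FPKM there and 2.25 FPKM in Dim 2. The Leydig gene Fdx1 was at 38.5 FPKM in Bright 3 and at 17.6 to 33.3 FPKM in the other 5 libraries, most of their Leydig sums. The sum of the endothelial markers, though not each gene, was higher in every Bright library, not in Bright 3 alone: the 7 genes summed to 8.07, 6.63 and 24.6 FPKM in Bright 1, 2 and 3, against 2.66, 2.84 and 3.01 FPKM in Dim 1, 2 and 3. Kdr, Cdh5, Pecam1 and Tek, the 4 of the 7 that passed the filter on low values, did so through the Bright libraries, and all 4 were called higher in Bright by limma (3 without Bright 3). The endothelial genes Tie1 and Esam were at or under 0.13 FPKM in the 5 libraries other than Bright 3. Tie1 was at 0.043 and 0.087 FPKM in Bright 1 and 2, under each Dim library (0.09 to 0.13 FPKM). Esam was at 0.025 and 0.074 FPKM in Bright 1 and 2, against 0.048 to 0.069 FPKM in Dim libraries. Emcn was at 0.071 and 0.053 FPKM in Bright 1 and 2, above each Dim library (at most 0.049 FPKM). Of the stromal markers, Pdgfra measured 6.13, 6.46 and 13.6 FPKM in Bright libraries, and between 1.19 and 1.52 FPKM in Dim libraries (limma adjusted p = 0.00157), so its groups did not overlap either. The 8 macrophage markers summed to 140.8 FPKM in Bright 3, 56.8 in Dim 1, 59.8 in Dim 2 and 3.30 to 4.96 in the remaining libraries. Results are therefore given with and without Bright 3, and the part of these markers, including those higher in all Bright libraries, in the results was not tested. In sorted bulk samples, fewer cells of a type and less RNA per cell cannot be told apart.

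The 7 genes were all well covered. The smallest steps between low values put 1 read per kilobase at 0.0263 to 0.0425 FPKM, depending on the library. Braf in Bright 2, the lowest value among these genes at 4.47 FPKM, therefore stood for about 142 reads per kilobase, and every other gene stood for at least 776 in every library. Levels ranged widely. Over all 6 libraries Map2k2 averaged 107.7 FPKM, above 94.0% of the genes tested, Nras 71.7 FPKM (89.6%), Mapk3 50.2 FPKM (83.4%), Map2k1 49.2 FPKM (82.9%), Hras 46.9 FPKM (82.0%), Araf 31.1 FPKM (72.0%) and Braf 9.77 FPKM (42.5%). Map2k2 ranked highest and Braf lowest of the 7 in each of the 6 libraries. Mapk3 ranked 2 or 3 in the Bright libraries and 5 in each Dim library. Mapk3, Map2k1 and Hras were close together in overall level, and their order differed between libraries.

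**Figure D1:**
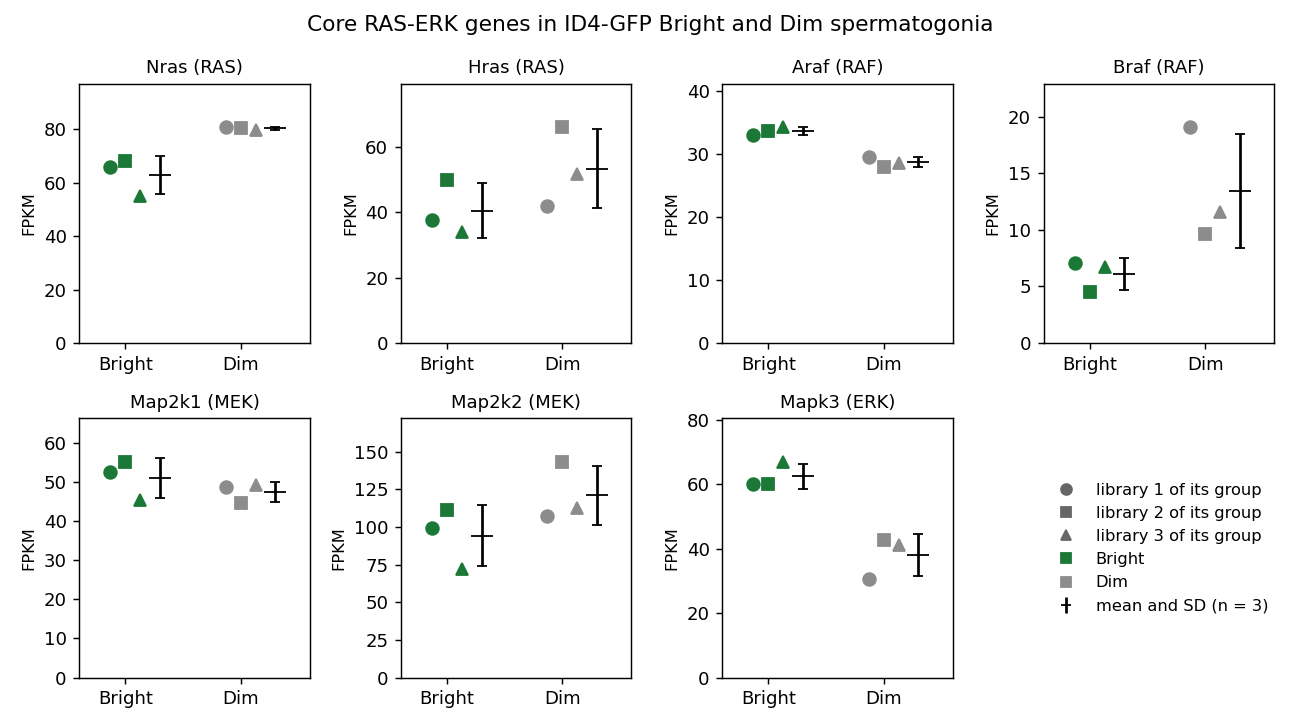
FPKM of each core gene (vertical axes, starting at 0, scaled per gene) in the 3 Bright and 3 Dim libraries, with the mean and SD of each group beside the points. The groups do not overlap for Nras, Araf, Braf and Mapk3, and they overlap for Hras, Map2k1 and Map2k2.

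Bright was compared with Dim by limma on log2(FPKM + 1), with p-values adjusted by the Benjamini-Hochberg method over all 13416 genes and genes under 0.05 called. Of all genes tested, 22.5% were called, 12% higher and 10.5% lower in Bright. Of the 7 core genes 2 (28.6%) were called, 1 in each direction. The median log2 fold change of the 7 was -0.35, beside -0.03 for all genes tested. The groups did not overlap in 4 of the 7 (57.1%), with Bright above Dim in 2 and below it in 2, beside 41.1% of all genes tested (20.4% above and 20.8% below). With only 7 genes, both shares are near the background.

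Nras encodes a RAS GTPase that is anchored to membranes by lipid groups. It measured 65.8, 68.1 and 54.9 FPKM across libraries Bright 1, 2 and 3, and 80.9, 80.5 and 79.8 FPKM across libraries Dim 1, 2 and 3. Every Bright library lay below every Dim library, and the Dim libraries were nearly equal to each other while Bright 3 lay below the other Bright libraries. The difference of -0.35 ± 0.13 (log2, standard error) did not pass (limma adjusted p = 0.093). Without Bright 3 the log2 fold change was -0.26 (adjusted p = 0.172). Hras, the closely related GTPase, measured 37.5, 50.0 and 34.0 FPKM in Bright libraries, and 42.0, 66.2 and 51.9 FPKM in Dim libraries. The groups overlapped, since Bright 2 was above Dim 1. Its log2 fold change of -0.38 had a 95% interval of -0.85 to 0.08 (adjusted p = 0.216), and without Bright 3 it was -0.27 (0.448). The sum of both genes was 103, 118 and 88.9 FPKM in Bright libraries, and 123, 147 and 132 FPKM in Dim libraries. Nras made up 57.7% to 63.7% of that sum in Bright and 54.9% to 65.8% in Dim libraries, so the balance of this pair overlapped between the groups.

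Braf encodes the RAF kinase with the highest basal activity towards MEK. It measured 7.03, 4.47 and 6.76 FPKM across libraries Bright 1, 2 and 3, and 19.1, 9.62 and 11.6 FPKM across libraries Dim 1, 2 and 3. All Bright libraries lay below all Dim libraries, and Dim 1 stood well above the other Dim libraries. The means were 6.09 ± 1.41 FPKM in Bright libraries and 13.4 ± 5.02 FPKM in Dim libraries (SD, n = 3 each), with Dim 2.21 times Bright. Its log2 fold change came to -0.99 ± 0.26 (standard error; limma adjusted p = 0.0261). This call was lost without Bright 2 (adjusted p = 0.0635), without Bright 3 (0.0567) or without Dim 3 (0.0576), with log2 fold changes between -1.07 and -0.82, and with no filter on low values (0.0768). In the authors' deposited table the log2 ratio of Braf was -1.06 with q = 0.0707. The end of Braf overlaps Ndufb2, a gene on the opposite strand for a subunit of respiratory complex I, by 146 bases, and strandedness is not given in the sources used here. Ndufb2 measured 57.1, 112 and 75.9 FPKM in Bright libraries, and 66.8, 122 and 96.6 FPKM in Dim libraries, with overlapping groups (log2 fold change -0.23, limma adjusted p = 0.605).

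Araf, the X-linked RAF kinase, measured 33.0, 33.7 and 34.3 FPKM in Bright libraries, and 29.5, 28.0 and 28.5 FPKM in Dim libraries. The groups did not overlap and each was tight, with a coefficient of variation of 1.94% in Bright and 2.69% in Dim libraries. The difference was small, with a log2 fold change of 0.22 and a 95% interval of -0.04 to 0.49, and did not pass (limma adjusted p = 0.202, and 0.258 without Bright 3). Summed over Araf and Braf the level was 40.0, 38.1 and 41.0 FPKM in Bright libraries, and 48.6, 37.6 and 40.1 FPKM in Dim libraries. The sums overlapped, but the balance did not: Araf made up 82.4%, 88.3% and 83.5% of the pair in Bright, and 60.7%, 74.4% and 71.1% in Dim libraries. The level of Araf was 4.69 to 7.53 times that of Braf in Bright and 1.54 to 2.91 times in Dim libraries. These shares follow from the values of both genes given above and were not tested apart from them.

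**Figure D2:**
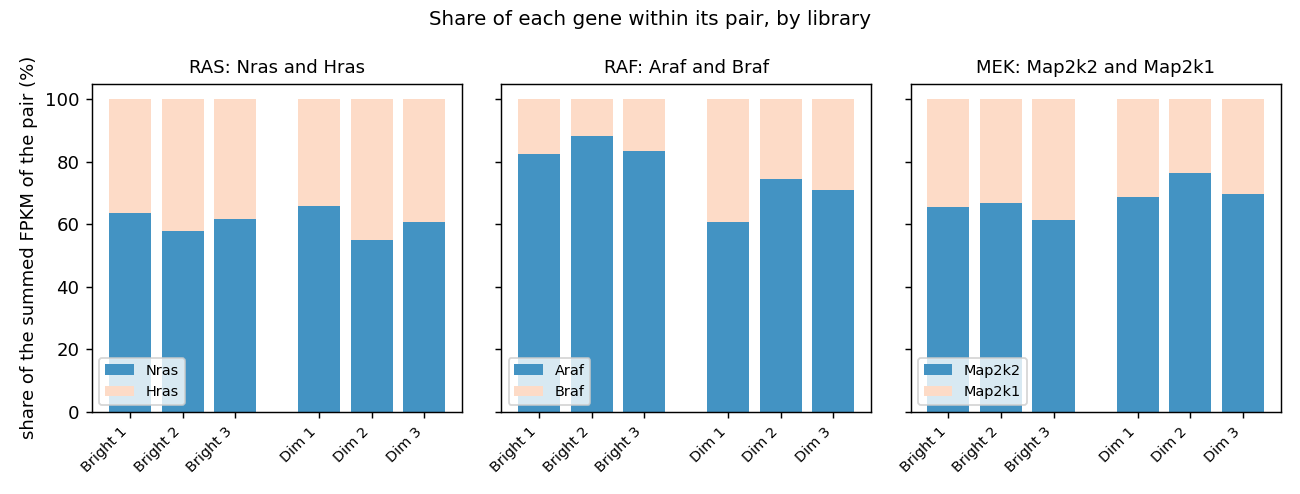
Share (%) of the summed FPKM taken by each gene of a pair, in each Bright library (left) and each Dim library (right) of each panel. Araf takes 82.4% to 88.3% of the RAF pair in Bright and 60.7% to 74.4% in Dim libraries, and Map2k2 takes 61.4% to 66.8% of the MEK pair in Bright and 68.8% to 76.3% in Dim libraries, while the shares of the RAS pair overlap between the groups.

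Promoter sequence is shown for Braf, the called core gene for which a promoter was matched, and for Araf, its partner in the RAF pair. The sequences are from RefSeq (GRCm38.p6), where 6 of the 7 core genes were matched by symbol, and the promoter of Mapk3 was not analysed here. Each line gives the 250 bases before the RefSeq start, 5′ to 3′ on the strand of the gene, at chr6:39725464-39725713 for Braf (minus strand) and chrX:20848293-20848542 for Araf (plus strand), where the RefSeq start lies inside the span of the gene in the deposited table. Capitals mark matches on either strand to the GC box (GGGCGG), the CCAAT box (CCAAT) and the E-box (CANNTG), the motif of the helix-loop-helix factors that ID proteins inhibit.
Braf: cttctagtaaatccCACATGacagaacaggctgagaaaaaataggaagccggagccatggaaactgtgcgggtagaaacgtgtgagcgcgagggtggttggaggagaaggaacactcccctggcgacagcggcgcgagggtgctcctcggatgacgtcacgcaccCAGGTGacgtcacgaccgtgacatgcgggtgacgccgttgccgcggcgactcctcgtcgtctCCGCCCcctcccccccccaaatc
Araf: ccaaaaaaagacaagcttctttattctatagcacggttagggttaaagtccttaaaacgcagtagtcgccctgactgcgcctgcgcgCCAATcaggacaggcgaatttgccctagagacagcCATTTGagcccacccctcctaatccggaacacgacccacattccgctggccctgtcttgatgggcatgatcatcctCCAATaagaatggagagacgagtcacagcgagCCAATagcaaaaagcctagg
The E-box was matched 2 times in Braf and 1 time in Araf, and 66.2% of the 32851 promoters of this length held it. The GC box was matched 1 time in Braf and not in Araf (32.7% of promoters), and the CCAAT box 3 times in Araf and not in Braf (33.8% of promoters). No matches to different motifs overlapped in these windows. The ETS motif CCGGAAG, bound by ETS factors, was matched in none of the 6 promoters of the core genes and in 6.91% of all promoters. GC content was 62.0% for Braf and 51.2% for Araf, and the median over all promoters was 52.4%.

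Map2k1 and Map2k2 encode MEK1 and MEK2, the kinases that phosphorylate ERK on both residues of its activation loop. Map2k1 measured 52.6, 55.2 and 45.3 FPKM in Bright libraries, and 48.6, 44.5 and 49.2 FPKM in Dim libraries. The groups overlapped, with a log2 fold change of 0.10 and a 95% interval of -0.20 to 0.40 (limma adjusted p = 0.622), which leaves room for a modest difference in either direction. Without Bright 3, the lowest Bright library, it was 0.18 (adjusted p = 0.343). Map2k2 measured 99.6, 111 and 72.2 FPKM in Bright libraries, and 107, 143 and 112.5 FPKM in Dim libraries. Here the groups overlapped as well, since Bright 2 was above Dim 1, and Bright 3 was the lowest of the 6. The log2 fold change was -0.37 (95% interval -0.81 to 0.08, adjusted p = 0.218), and without Bright 3 it was -0.19 (adjusted p = 0.493). In the authors' deposited table the log2 ratio of Map2k2 was -0.48 with q = 0.0745. Map2k2 made up 65.4%, 66.8% and 61.4% of the MEK pair in Bright, and 68.8%, 76.3% and 69.6% in Dim libraries, shares that did not overlap. These shares follow from the values of both genes, neither of which was called, and were not tested.

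Mapk3 encodes ERK1, the kinase through which the cascade reaches its substrates. It measured 60.1, 60.2 and 67.0 FPKM across libraries Bright 1, 2 and 3, and 30.5, 42.6 and 41.0 FPKM across libraries Dim 1, 2 and 3. All Bright libraries lay above all Dim libraries, and Dim 1 was the lowest of the 6. The means were 62.4 ± 3.95 FPKM in Bright libraries and 38.1 ± 6.55 FPKM in Dim libraries (SD, n = 3 each), a ratio of 1.64. Its log2 fold change came to 0.71 ± 0.16 (standard error; limma adjusted p = 0.0129). The call was kept with each library left out in turn, with adjusted p between 0.0173 and 0.0412, and it was 0.0412 without Bright 3. In the authors' deposited table Mapk3 had a log2 ratio of 0.66 with q = 0.014, the only one of the 7 with q under 0.05, where 14.6% of the genes tested here were under it. The level of Mapk3 was 1.14, 1.09 and 1.48 times that of Map2k1 in Bright, and 0.628, 0.957 and 0.835 times in Dim libraries, so the order of this pair differed between the groups in all 6 libraries.

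The exact two-sided permutation test of the FPKM values gave p = 0.1 for Nras, Braf, Araf and Mapk3, the smallest value that 20 arrangements of 3 against 3 libraries allow. It gave 0.2 for Hras and Map2k2 and 0.3 for Map2k1. The authors also deposited comparisons of single pairs of libraries, without replicates. In these tables, in the order Bright 1 over Dim 1, Bright 2 over Dim 2 and Bright 3 over Dim 3, the log2 ratio of Mapk3 was 0.86, 0.51 and 0.62. That of Braf lay between -1.38 and -0.66 in the authors' deposited tables. Nras, Hras and Map2k2 were below 0 and Araf above 0 in all 3 pairs there, Map2k1 was above 0 in 2 pairs and below 0 in that of Bright 3, and no q was under 0.05 for these genes, where 0.224%, 0.142% and 0.134% of the genes tested here were under it.

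**Figure D3:**
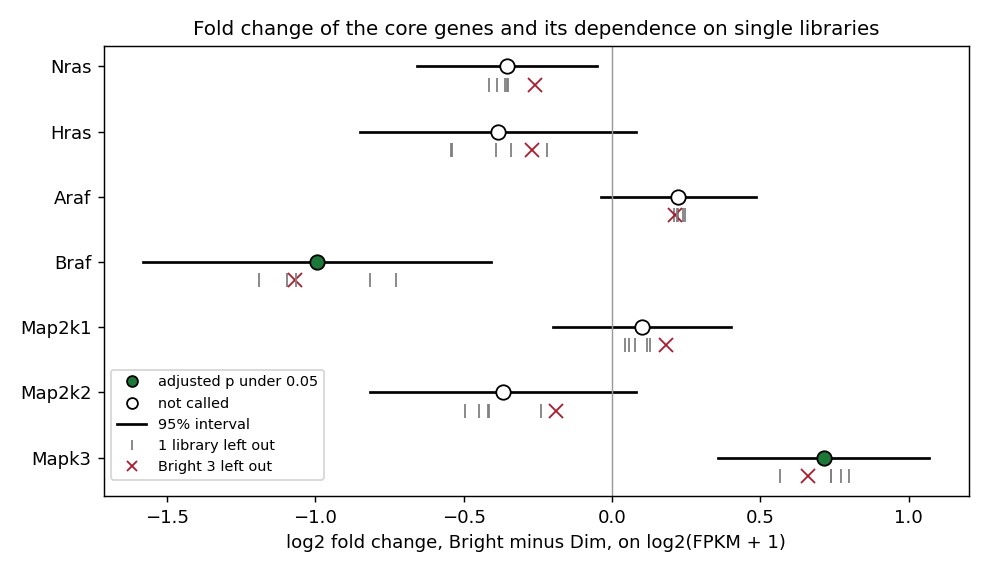
Log2 fold change (Bright minus Dim, on log2(FPKM + 1)) of each core gene with its 95% interval, and below it the value with each library left out, a cross marking Bright 3. Only the intervals of Mapk3, Braf and Nras exclude 0, and no gene changes direction when a library is left out.

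The 7 genes lie on 6 chromosomes. As the deposited table gives them, the positions are chr3:103058285-103067914 for Nras (plus strand), chr7:141189105-141194005 for Hras (minus), chr6:39603237-39725463 for Braf (minus), chrX:20797814-20860519 for Araf (plus), chr9:64185770-64253631 for Map2k1 (minus), chr10:81105915-81124697 for Map2k2 (plus) and chr7:126759601-126765819 for Mapk3 (plus). All are protein coding, and all but Map2k2, which ends at 81133975 there, had the same positions in the GRCm38 annotation (GENCODE M21). The span of Braf, 122227 bases, was the longest of these, and those of Hras and Mapk3, 4901 and 6219 bases, were the shortest. The GRCm38 annotation also places 1 other gene of the deposited table, Syn1, over the end of Araf, by 9 bases on the opposite strand. Syn1 was at 2.81, 2.15 and 2.88 FPKM in Bright libraries and 0.94, 0.73 and 0.741 FPKM in Dim libraries (limma adjusted p = 0.00274). Being under 1 FPKM in every Dim library, it passed the filter on low values only through the Bright libraries, so a call could only be higher in Bright.

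Among protein-coding genes with a mean of at least 5 FPKM, the genes whose log2(FPKM + 1) correlated best with each member over the 6 libraries were as follows. For Mapk3 they were Zrsr1, Wbscr27 and Tmem106a (Pearson r = 0.991, 0.989 and 0.989), and for Braf 8030462N17Rik, Mob1a and Mtmr10 (r = 0.996, 0.995 and 0.994). For Nras they were Jrk, Uba2 and Palb2 (r = 0.997, 0.997 and 0.996), and for Hras Cox19, Gm42742 and Stub1 (r = 0.997, 0.997 and 0.996). For Araf they were Fig4, Fam114a2 and Msn (r = 0.998, 0.997 and 0.995), for Map2k1 Tnfaip1, Ccdc127 and Alkbh1 (r = 0.990, 0.980 and 0.977), and for Map2k2 Tpr, Adprhl2 and Cactin (r = 0.998, 0.997 and 0.995). With 9294 genes compared over only 6 libraries, high values arise readily. Among the members themselves Braf and Mapk3 had r = -0.92 and Hras and Map2k2 r = 0.92, over the same libraries.

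Around the core, 9 lists with 159 genes of the pathway were examined, of which 145 were tested. In these, 34 genes were higher and 12 lower in Bright (31.7% called, beside 22.5% of all genes tested). Those higher include Rasgrf1, Rgl3, Spry4, Dusp4 and Phlda1, which passed the filter on low values only through the Bright libraries. Rasal3, also higher, depended on the Bright libraries to pass it, since Dim 2 alone of the Dim libraries reached 1 FPKM. Without Bright 3 the counts were 31 and 11. Apart from the ERK feedback genes, 22 were higher and 10 lower of 129 (24.8%), near the background. Of the 46 calls, 27 were kept with every library left out in turn.

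Among receptor adaptors and RAS exchange factors, 4 of 18 were higher in Bright and 2 lower (4 and 1 without Bright 3; median log2 fold change 0.19). Rasgrp2, an exchange factor that acts mainly on RAP GTPases, was at 80.1, 149 and 83.1 FPKM in Bright libraries, and 17.7, 39.7 and 23.4 FPKM in Dim libraries (limma adjusted p = 0.00716). Sos2, an exchange factor that loads RAS, was at 5.38, 5.75 and 8.77 FPKM in Bright libraries, and 2.96, 1.47 and 1.79 FPKM in Dim libraries (adjusted p = 0.00533). Both kept their calls with each library left out. The adaptor Frs3 was lower in Bright, at 4.85 ± 0.921 FPKM in Bright libraries and 9.31 ± 2.0 in Dim libraries (adjusted p = 0.0163), a call lost without Bright 3 (0.0532) or Dim 2 (0.0555). Rasgrf1, another exchange factor, was near the detection filter at 1.45 ± 0.236 FPKM in Bright libraries and 0.665 ± 0.0572 in Dim libraries (adjusted p = 0.0268), a call lost without Bright 1, Dim 1, Dim 2 or Dim 3 (0.0606 to 0.098). Being under 1 FPKM in every Dim library, Rasgrf1 passed the filter only through the Bright libraries, so a call could only be higher in Bright.

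Of the 10 GTPase-activating proteins that switch RAS off, 2 were higher in Bright and 0 lower (2 and 1 without Bright 3; median 0.09). Rasa3 was at 35.9, 37.2 and 28.5 FPKM in Bright libraries, and 16.8, 17.6 and 18.2 FPKM in Dim libraries (limma adjusted p = 0.00299). Rasal3 was at 3.01 ± 0.462 FPKM in Bright libraries and 0.906 ± 0.307 in Dim libraries (adjusted p = 0.00337). Of the Dim libraries only Dim 2 reached 1 FPKM for it (1.24 FPKM), so Rasal3 depended on the Bright libraries to pass the filter on low values. Of 11 genes for RAS processing and trafficking, 1 was higher and 1 lower, and neither was called without Bright 3 (median -0.04). The higher one was Lypla2, an enzyme that removes palmitate from proteins, at 46.3 ± 7.83 FPKM in Bright libraries and 30.0 ± 5.75 in Dim libraries (adjusted p = 0.0398, and 0.0712 without Bright 3). The lower one was Pde6d, a carrier of prenylated proteins, at 26.2 ± 4.61 FPKM in Bright libraries and 39.8 ± 5.18 in Dim libraries (adjusted p = 0.0334, and 0.0915 without Bright 3). Over single libraries left out, Lypla2 kept its call in 1 of 6 fits and Pde6d in 2 of 6.

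Of 25 scaffolds and modulators of RAF and MEK, 3 were higher and 2 lower in Bright (1 and 2 without Bright 3; median 0.15). Cnksr2, a scaffold that binds RAF, was at 2.76, 1.98 and 1.41 FPKM in Bright libraries, and 9.52, 6.40 and 5.97 FPKM in Dim libraries (limma adjusted p = 0.00286), and its call held whichever library was left out. Ppp1cb, a phosphatase catalytic subunit of the complex with SHOC2 that helps to activate RAF, was at 126 ± 7.3 FPKM in Bright libraries and 78.4 ± 12.1 in Dim libraries (adjusted p = 0.0143, and 0.0575 without Dim 2). Spred1, which recruits a GTPase-activating protein to RAS, was at 21.7 ± 2.04 FPKM in Bright libraries and 14.1 ± 2.87 in Dim libraries (adjusted p = 0.0334, and 0.058 without Bright 3). Its relative Spred2 was at 18.8 ± 3.7 FPKM in Bright libraries and 11.3 ± 2.89 in Dim libraries (adjusted p = 0.0473, and 0.105 without Bright 3). With single libraries left out, Spred1 kept its call in 1 of 6 fits and Spred2 in 2 of 6.

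Other small GTPases and effectors were split. Of 13 other RAS subfamily GTPases 1 was higher and 1 lower (1 and 2 without Bright 3; median 0.01). The RAS-like gene Rasl11a was at 11.9, 17.7 and 19.4 FPKM in Bright libraries, and 2.32, 3.21 and 2.76 FPKM in Dim libraries (limma adjusted p = 0.000328). Rheb, the GTPase that activates mTORC1, was at 53.9 ± 1.94 FPKM in Bright libraries and 91.4 ± 1.13 in Dim libraries (adjusted p = 0.00313). Of 13 other effectors of RAS 3 were higher and 1 lower (3 and 2 without Bright 3; median -0.04). Pik3ca, a catalytic subunit of PI3-kinase, was at 34.9 ± 2.95 FPKM in Bright libraries and 15.5 ± 0.763 in Dim libraries (adjusted p = 0.000776), and Tiam1, an exchange factor for RAC, at 29.1 ± 5.46 FPKM in Bright libraries and 11.9 ± 1.89 in Dim libraries (0.00225). Rgl2, an exchange factor for RAL, was at 14.6 ± 0.67 FPKM in Bright libraries and 24.0 ± 3.44 in Dim libraries (adjusted p = 0.0128). These 5 genes kept their calls with each library left out. Rgl3, of the same family as Rgl2, was at 2.13 ± 1.01 FPKM in Bright libraries and 0.765 ± 0.161 in Dim libraries (adjusted p = 0.0367), and its call was lost without any one of the Dim libraries (0.0706 to 0.081). Being under 1 FPKM in every Dim library, Rgl3 passed the filter only through the Bright libraries, so a call could only be higher in Bright.

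**Figure D4:**
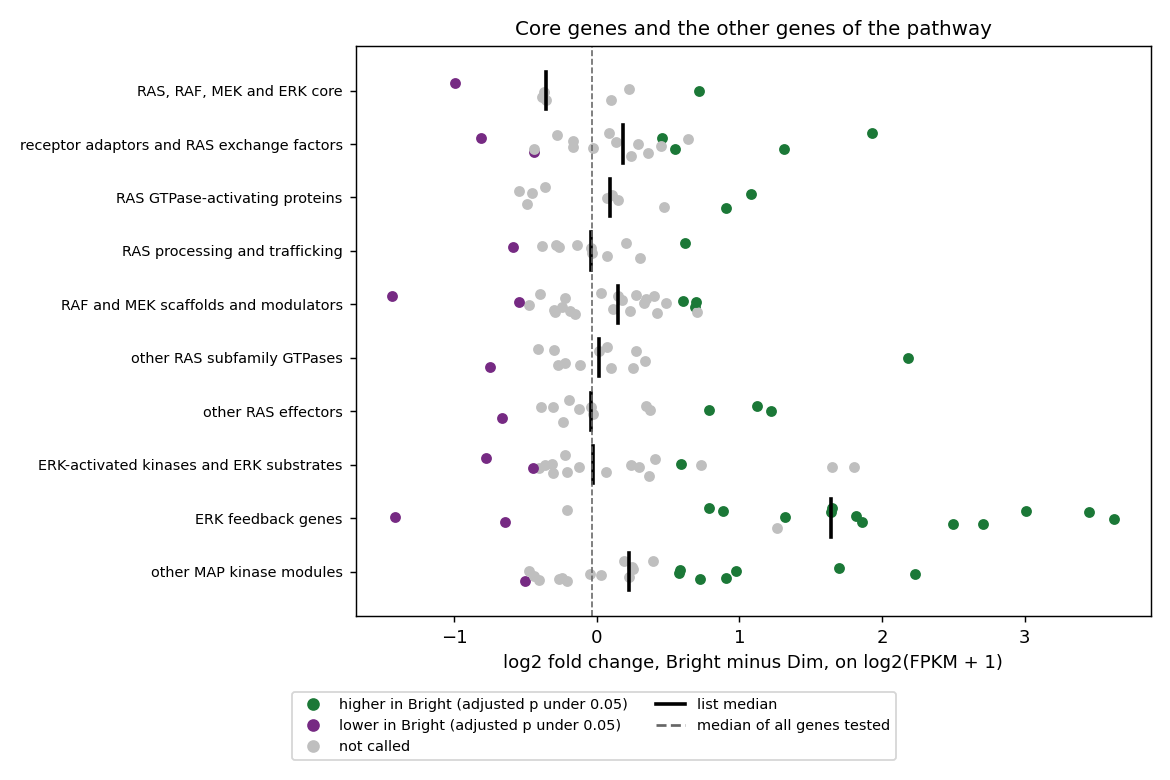
Log2 fold change (Bright minus Dim, on log2(FPKM + 1)) of each tested gene of the core and of the 9 pathway lists, coloured where the adjusted p is under 0.05, with list medians as black bars. The ERK feedback genes have a median of 1.65 and the core genes of -0.35, beside -0.03 for all genes tested (dashed line).

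Downstream of ERK, 1 of 18 activated kinases and substrates was higher and 2 were lower in Bright (1 and 1 without Bright 3; median -0.03). Mknk1, a kinase that ERK activates and that phosphorylates a translation initiation factor, was at 14.7 ± 1.47 FPKM in Bright libraries and 26.0 ± 3.33 in Dim libraries (limma adjusted p = 0.00665). Elk4, a transcription factor that ERK phosphorylates, was at 37.7 ± 1.2 FPKM in Bright libraries and 24.9 ± 3.12 in Dim libraries (adjusted p = 0.0152), and without Dim 2 or Dim 3 its adjusted p was 0.0642 and 0.0621. The factor Atf1 was at 47.4 ± 4.93 FPKM in Bright libraries and 64.9 ± 3.71 in Dim libraries (adjusted p = 0.0412) and kept its call in 1 of 6 fits with a library left out.

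The list of ERK feedback genes held the most calls of the 9 lists. Besides phosphatases and other inhibitors it also holds genes such as Etv4, Etv5 and Ccnd1. Of 16 tested, 12 were higher and 2 lower in Bright, with the same counts without Bright 3, and their median log2 fold change was 1.65. This direction was known from earlier results of these data. Spry4, Dusp4 and Phlda1 were under 1 FPKM in every Dim library and passed the filter on low values only through the Bright libraries. A call of these genes could therefore only be higher in Bright. Log2 fold changes were 3.63 for the ETS factor gene Etv5, 3.45 for the ERK phosphatase gene Dusp6, 3.01 for the signalling inhibitor gene Spry4 and 2.71 for Etv4 (limma adjusted p between 2.82e-05 and 0.000137). The members lower in Bright, named because they were the exceptions, were Dusp2 and Ccnd1. Dusp2, a nuclear phosphatase of MAP kinases, was at 4.76, 2.87 and 4.07 FPKM in Bright libraries, and 13.0, 12.2 and 10.8 FPKM in Dim libraries (adjusted p = 0.00119). Ccnd1, cyclin D1, was at 43.4 ± 4.99 FPKM in Bright libraries and 68.2 ± 3.71 in Dim libraries (adjusted p = 0.0108), and both kept their calls with each library left out.

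In the parallel modules of p38, JNK and other MAP kinases, 7 of 21 genes were higher and 1 lower in Bright (7 and 0 without Bright 3; median 0.22). Mapk11, the p38 beta kinase, was at 14.2, 24.7 and 11.1 FPKM in Bright libraries, and 2.05, 3.24 and 2.57 FPKM in Dim libraries (limma adjusted p = 0.00104). Mapk12, p38 gamma, was at 18.7, 32.8 and 12.8 FPKM in Bright libraries, and 4.44, 7.26 and 4.92 FPKM in Dim libraries (adjusted p = 0.0083, and 0.0519 without Dim 1). Mapk10, a JNK kinase, was at 14.1 ± 1.69 FPKM in Bright libraries and 6.65 ± 0.472 in Dim libraries, and Map3k5, a stress-activated kinase upstream of both modules, at 31.1 ± 4.04 FPKM in Bright libraries and 16.0 ± 0.735 in Dim libraries (adjusted p = 0.00224 and 0.0028). Bright 2 was the highest of the 6 libraries for Mapk11 and Mapk12, and the highest of the Bright libraries for the core genes Nras, Hras, Map2k1 and Map2k2.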

How the data were processed

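RNA was sequenced from 3 Bright and 3 Dim libraries. The authors' deposited values are FPKM per gene, and their notes name TopHat2 2.1.1, Cufflinks 2.2.1 and the build mm9 with no parameters, per the submitters' processing notes. Gene positions in the table matched GRCm38 for 81.0% of 31584 identifiers found in GENCODE M21, so positions are given on GRCm38. The authors also deposited comparison tables with log2 ratios, p-values and q-values, whose test is not given in the sources used here.

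No rescaling was applied before taking log2(FPKM + 1). The filter kept 13416 genes that reached 1 FPKM in 3 or more libraries, tested in limma 3.58.1 (R 4.3.3) with a mean-variance trend and robust estimation, group as the only term and Benjamini-Hochberg adjustment, and called under 0.05. Fold changes on this scale understate those of low genes. No count test was run. Read depth is approximate: in single-transcript genes with at most 0.3 FPKM, 89.7% to 92.9% of values lay within 0.1 of a whole number of reads, which put the libraries at about 23500000 to 38100000 reads. Whole reads of genes with several transcripts were not recovered, so no counting intervals are given.

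The 7 genes, the pathway lists, the marker lists and the tests were chosen with earlier results of these data known. Named genes were the members, up to 4 called genes of largest fold change from each list, and the 3 genes most correlated with each member. Alternatives were other pseudocounts, filters, scalings and variance models, a replicate block, and each library left out. A symbol with more than 1 row, Map2k7, was taken from the row with the higher mean.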

Additional observations from a re-analysis of the deposited data

How the results depend on the processing

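Over 15 alternatives none of the 7 core genes changed direction, and Mapk3 was called in all of them (adjusted p 0.00149 to 0.0412). The count of core genes lower in Bright was 1, and 0 with no filter on low values, where more genes were tested; the count higher in Bright was 1 throughout. With each library left out in turn the count lower in Bright ranged from 0 to 1, the genes called from 1957 (without Dim 2) to 2603, and the pathway genes called from 30 (without Dim 3) to 40 without Bright 2 and 42 without Bright 3; the count of all genes called without Dim 3 was 1973. All genes called numbered 3016. With the replicate number as a block they numbered 5453 (2607 higher and 2846 lower in Bright), with 4 core genes lower (Braf, Nras, Hras and Map2k2) and 76 pathway genes called, against 46. The deviations of same-numbered libraries correlated at 0.435, 0.511 and -0.194 for numbers 1, 2 and 3. Libraries of numbers 1 and 2 correlated best with their own number, and those of number 3 did not. The numbers were therefore not taken to pair the libraries, which does not show that the libraries are unpaired. The authors' single-pair comparisons set same-numbered libraries against each other. Log2 fold changes of Nras, Hras and Map2k2 were the same in both fits (adjusted p with the block 0.0243, 0.0222 and 0.0413). The precision of 3 libraries a group limits all differences among the core genes. A core gene that was not called is therefore not shown to be alike in both groups, and small changes can be missed with 3 libraries a group.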
